A study of Mus musculus with 55 samples.

Results

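The genes described here are 10 of the 24478 gene symbols in a table of expression values from sorted mouse liver cells. They were named with earlier results of these data known, as genes of endothelial identity and of position along the liver sinusoid: Cdh5, Pecam1, Gata4, Maf, Oit3, Kit, Cdh13, Ltbp4, Selp and Stc2. A symbol with several rows is represented by the row of the highest mean. All 10 were found, and the main comparison is between 2 endothelial sorts, with the other 8 sorted populations of the study as the background.

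Liver sinusoids are capillaries lined by a fenestrated endothelium that clears waste from the blood and signals to the hepatocytes beside it. Blood enters at the portal tract and leaves at the central vein, and the endothelial cells along this path differ in what they express. Kit and Cdh13 are known from the part nearer the central vein, where endothelial Wnt ligands and R-spondins maintain the metabolic zones of the hepatocytes, while Ltbp4 is known from the portal part.

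The mice were of strain C57B/L6, without a named allele or transgene, and their livers were either normal or had undergone partial hepatectomy (PH), the removal of part of the liver, after which the remainder regrows. The labels give neither the time after surgery nor an age, and do not say whether the libraries of a group came from separate animals, so p-values measure the spread between these libraries only. Cells were sorted by flow cytometry, and the sort markers are not given in the sources used here. Sorts labelled as endothelial cells (EC) gave 2 normal and 3 PH libraries, and those labelled as liver sinusoidal endothelial cells (LSEC) gave 3 normal and 5 PH libraries. The other populations, with their numbers of normal and PH libraries, were hepatocytes (HC, 4 and 4), biliary epithelial cells (BEC, 4 and 2), clonal biliary epithelial cells (cBEC, 4 and 2), non-progenitor ducts (NPD, 2 and 2), Kupffer cells (KC, 2 and 3), hepatic stellate cells (HSC, 2 and 3), Thy1 cells (2 and 2) and blood cells (2 and 2). In all there were 55 libraries. Of the PH cBEC libraries, 1 carries a treatment tag of normal and was kept as titled.

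Levels are in FPKM, fragments scaled to transcript length and to the number of mapped fragments, so they can be compared between genes of different length. Within the 4 endothelial groups, pairs of libraries correlated with r between 0.962 and 0.991 over the log2 values of all genes. The 25 pan-endothelial marker genes, Cdh5 and Pecam1 among them, summed to 8165 to 9748 FPKM in normal EC. The sums were 6604 to 7939 in PH EC, 9096 to 10371 in normal LSEC and 8351 to 9569 in PH LSEC. Lyve1, the hyaluronan receptor of sinusoidal and lymphatic endothelium, had means of 457 and 290 FPKM in normal and PH LSEC. In normal and PH EC the means of Lyve1 were 58.5 and 29.2. Lyve1 alone does not describe the sinusoidal genes. Over a list of 12 of them, Lyve1 included, the median log2 difference of LSEC from EC was 0.94 in normal liver. After PH it was 0.24, and 2 of the 12 were higher in LSEC by the test given below. Endothelial transcripts were not confined to the endothelial sorts: the same 25 genes summed to 3249 to 4065 FPKM in normal KC, to 2862 to 3216 in normal Thy1 cells, to 3265 to 6354 in PH Thy1 cells and to 2343 to 5256 in PH blood. The PH blood libraries also stood against their label in another way, since 8 Kupffer cell markers summed to 10277 to 18053 FPKM there against 900 to 1122 in normal blood, and 8 lymphoid markers to 88.9 to 194 against 3063 to 3315.

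Against the mean of the 8 other populations, most of the 10 genes were higher in both endothelial sorts. In normal liver 9 were higher in LSEC and 1, Stc2, was lower, where 18.6% and 30.7% of all genes tested were higher and lower (limma, Benjamini-Hochberg adjusted p under 0.05, as for every call below). In PH liver all 10 were higher in LSEC, against 20.6% of genes. In EC 8 were higher in normal liver and 9 after PH, against 15.3% and 19.4%. Of the same genes, Kit and Stc2 in normal EC and Stc2 in PH EC did not pass. A sort above this mean was not always above each population in it. Ltbp4 in LSEC had a mean of 576 FPKM in normal liver, below Thy1 cells (697) and NPD (637). After PH it was 105, below Thy1 cells (209), HSC (191) and NPD (156). In PH LSEC, Maf was also below blood by mean, and the other genes were above each of these populations. In PH EC, Kit, Maf, Oit3 and Selp were each below Thy1 cells or blood by mean. In these bulk libraries fewer cells of a type and less RNA per cell cannot be told apart.

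The size of this difference varied among the genes. In normal LSEC it was 5.42 on the log2 scale for Oit3, a secreted zona pellucida-domain protein of sinusoidal endothelium, 4.93 for Cdh5 and 4.86 for Pecam1, and it was smallest among the 9 for Ltbp4, at 2.88. After PH it was largest for Selp, at 6.30, and smallest for Ltbp4, at 1.72. The negative difference of Stc2 in normal LSEC, -0.66 (adjusted p 0.0232), was lost without either normal LSEC library 1 (0.0928) or library 2 (0.174), and also when blood, Thy1 cells and KC were left out of the contrast (0.242), a choice made after seeing the endothelial transcripts in those sorts. With the same 3 populations left out, Kit was higher in normal EC too, by 2.36 (adjusted p 0.00510), instead of 1.08 (adjusted p 0.185).

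**Figure D1:**
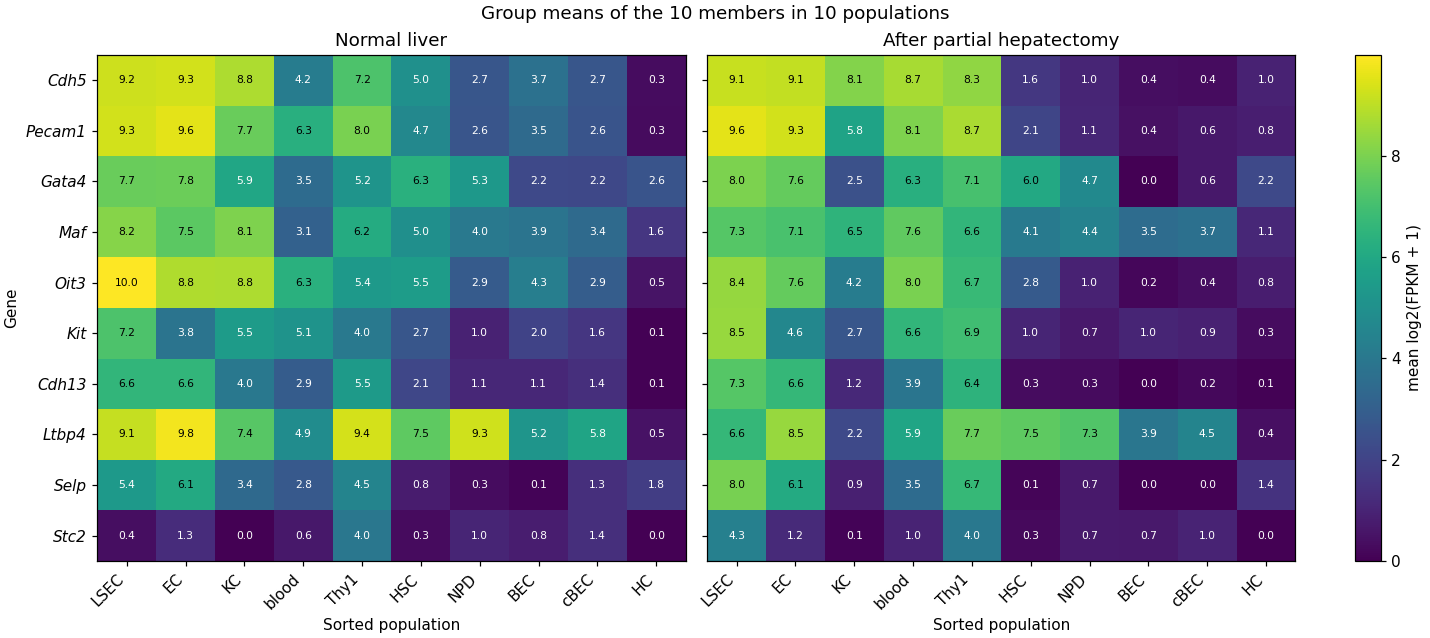
Mean log2(FPKM + 1) of the 10 genes (vertical axis) in the 10 sorted populations (horizontal axis), for normal liver and after PH. The LSEC and EC columns are high for most genes, the KC column is high in normal liver for Cdh5, Maf and Oit3 and lower after PH, and Stc2 is above 3 only in Thy1 cells and PH LSEC.

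Cdh5 encodes VE-cadherin, the adhesion molecule of endothelial junctions, and its levels in the endothelial libraries lay between 449 and 708 FPKM. It was 708 and 574 FPKM in normal EC, 484, 639 and 504 in PH EC, 625, 641 and 558 in normal LSEC, and 590, 449, 602, 577 and 635 in PH LSEC. The 4 groups overlapped. PH LSEC differed from normal LSEC by -0.10 on the log2 scale (SE 0.18, 95% confidence interval -0.49 to 0.29, limma adjusted p 0.770) and PH EC from normal EC by -0.24 (interval -0.78 to 0.29, limma adjusted p 0.75). Among populations of normal liver, EC and LSEC were followed by KC with 434 ± 47.4 FPKM (SD, n = 2) and Thy1 cells with 150 ± 39.1 (SD, n = 2). The LSEC libraries all lay above the KC libraries there, and EC and LSEC could not be ordered. After PH the order was LSEC, EC, blood, Thy1 cells and KC, of which blood, Thy1 cells and KC overlapped, and 1 LSEC library lay within the range of the blood and Thy1 libraries.

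Pecam1, or CD31, is an adhesion molecule shared by endothelium, platelets and leukocytes. Its levels were 800 and 737 FPKM in normal EC, 618, 698 and 588 in PH EC, 614, 583 and 715 in normal LSEC, and 811, 648, 630, 1011 and 743 in PH LSEC. The PH EC libraries lay below both normal EC libraries, but the difference of -0.28 (interval -0.75 to 0.19) did not pass (limma adjusted p 0.675), nor did 0.25 in LSEC (interval -0.20 to 0.71, limma adjusted p 0.475). In normal liver Thy1 cells and KC came next, with 249 ± 3.93 and 210 ± 40.8 FPKM (SD, n = 2 each).

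The ratio of Cdh5 to Pecam1 differed among the sorts that hold endothelial transcripts. It lay between 0.571 and 1.10 in all EC and LSEC libraries. In KC it was 1.96 to 2.21 in normal liver and 4.89 to 5.17 after PH, above every EC and LSEC library. In blood it was 0.207 to 0.242 in normal liver and 1.08 to 2.14 after PH. Thy1 cells, with 0.498 to 0.707 in normal liver and 0.708 to 0.83 after PH, overlapped the endothelial sorts. The ratio is a description of the libraries and was not tested.

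**Figure D2:**
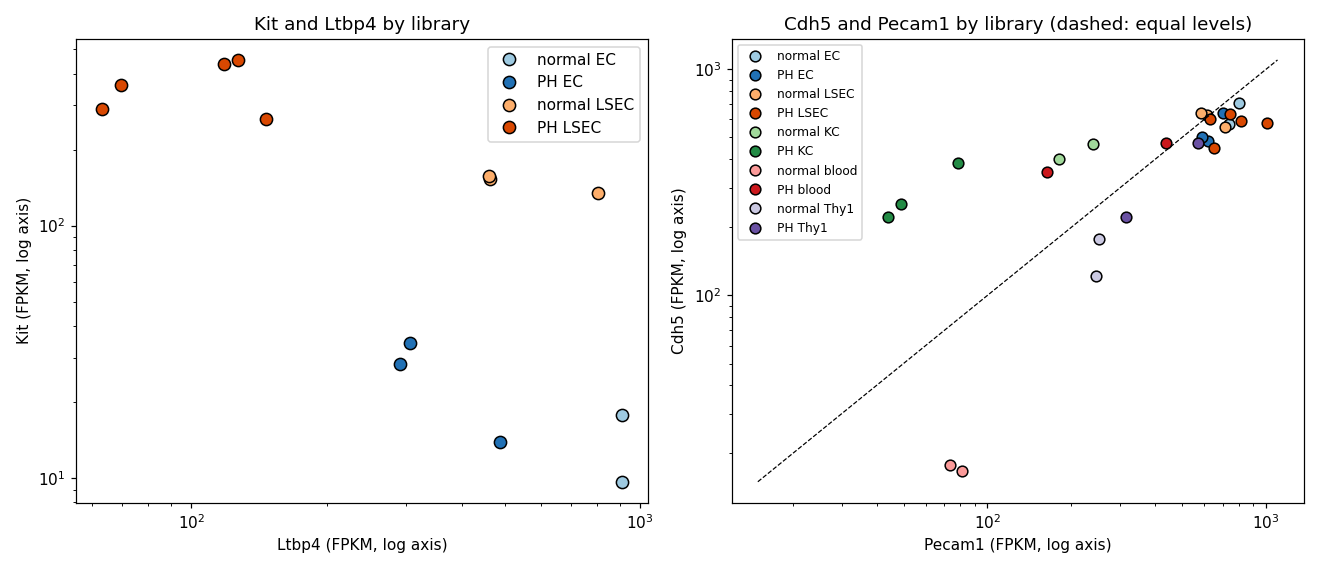
Left, Kit (vertical axis) against Ltbp4 (horizontal axis) in each EC and LSEC library, both in FPKM on log axes; the 5 PH LSEC libraries lie at the upper left and the 2 normal EC libraries at the lower right. Right, Cdh5 against Pecam1 in 10 groups, in FPKM on log axes, with a dashed line of equal levels; the KC libraries lie above the line and the normal blood libraries below it.

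Gata4 and Maf encode transcription factors known for the sinusoidal differentiation of liver endothelium. Gata4 was at 258 and 180 FPKM in normal EC, 195, 219 and 179 in PH EC, 237, 222 and 176 in normal LSEC, and 285, 221, 281, 252 and 248 in PH LSEC. It differed between treatments by 0.29 in LSEC (interval -0.09 to 0.66, limma adjusted p 0.321) and by -0.13 in EC (interval -0.66 to 0.41, limma adjusted p 0.881). Every PH LSEC library was above every PH EC library, by 0.38 in the fit (interval 0.02 to 0.74), which did not pass (limma adjusted p 0.237). HSC, in which Gata4 is also known, held 80.6 ± 5.89 FPKM in normal liver (SD, n = 2) and 64.6 ± 6.43 after PH (SD, n = 3).

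Maf was at 224 and 142 FPKM in normal EC, 147, 116 and 151 in PH EC, 295, 400 and 197 in normal LSEC, and 190, 124, 249, 90.7 and 208 in PH LSEC. The LSEC groups overlapped, and the difference of -0.82 (SE 0.34, interval -1.58 to -0.05) did not pass (limma adjusted p 0.175). In normal liver KC were between LSEC and EC, with 270 ± 23.2 FPKM (SD, n = 2), and they overlapped LSEC. After PH blood had the highest mean, 188 ± 7.43 FPKM (SD, n = 2), and overlapped LSEC.

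Oit3 was the most abundant of the 10 in normal LSEC, with 1038, 1380 and 735 FPKM. It fell in PH LSEC, to 346, 218, 722, 196 and 450 FPKM, so that the highest PH library lay just under the lowest normal one. The change was -1.56 on the log2 scale (SE 0.41, limma adjusted p 0.0441). It held in 1 of 8 fits with a library left out, that without PH LSEC library 3, and was lost without normal LSEC library 1, 2 or 3 and without PH LSEC library 1, 2, 4 or 5 (adjusted p up to 0.153). EC had 674 and 302 FPKM in normal liver and 176, 109 and 402 after PH, an overlapping difference of -1.18 (SE 0.59, interval -2.60 to 0.23, limma adjusted p 0.535). Normal KC held 363 and 529 FPKM and overlapped normal EC.

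Kit encodes the receptor tyrosine kinase for stem cell factor and its difference between the endothelial sorts was among the results known when the genes were chosen. It was at 17.8 and 9.67 FPKM in normal EC and at 134, 153 and 158 in normal LSEC. The difference of 3.39 (SE 0.26, limma adjusted p 0.0422) was the single one of the 10 to pass, and no other gene of the table was higher in LSEC by that test (0.00843% of 11868 genes). It was lost without any 1 of the normal LSEC libraries 1, 2 and 3, with adjusted p up to 0.230. Libraries of Oit3, above EC in LSEC, and of Pecam1, Ltbp4 and Stc2, below it, did not overlap either. Groups of 2 and 3 libraries often separate by order alone, and the share over all genes was not counted. Stc2 was at most 1.82 FPKM in these libraries. In PH liver Kit was at 34.2, 13.9 and 28.3 FPKM in EC and at 361, 264, 453, 289 and 436 in LSEC, a difference of 3.83 (SE 0.30, limma adjusted p 7.54e-05).

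Kit rose in LSEC after PH, by 1.25 (SE 0.21, limma adjusted p 0.00898), from 148 ± 12.4 FPKM (SD, n = 3) to 361 ± 84.5 (SD, n = 5), without overlap. Kit did not pass without normal LSEC library 1 (adjusted p 0.0539) or in 1 fit of all 20 groups (0.163), and it passed in the other 7 fits with a library left out. In EC the difference was 0.81 (interval -0.16 to 1.79, limma adjusted p 0.539), with overlapping groups. The test of the difference between the responses of the sorts did not pass, 0.44 (interval -1.27 to 2.15, adjusted p 1). Mast cells are also known for Kit. In the EC and LSEC libraries 6 mast cell markers summed to 0 to 1.58 FPKM, and Tpsb2 and Mcpt4 were listed at 0. Only 4 of the 6 were tested in the fit of all 20 groups, so the sum cannot measure mast cell transcripts in full.

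Cdh13 encodes T-cadherin, a membrane-anchored cadherin that binds adiponectin. It was at 79.8 and 113 FPKM in normal EC, 90.7, 121 and 88.4 in PH EC, 85.2, 85.6 and 115 in normal LSEC, and 184, 160, 107, 203 and 173 in PH LSEC. In normal liver the sorts overlapped, with a difference of -0.01 (interval -0.55 to 0.53, limma adjusted p 0.997). The PH LSEC values were higher than the normal ones in 4 of 5 libraries, and the difference of 0.77 (SE 0.22, interval 0.28 to 1.26) did not pass (limma adjusted p 0.0586). Without PH LSEC library 3, the one inside the normal range, it passed (adjusted p 0.0113).

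Ltbp4 encodes a latent TGF-beta binding protein of the extracellular matrix. Its levels were 911 and 909 FPKM in normal EC and 807, 463 and 460 in normal LSEC. After PH they were 307, 488 and 291 in EC and 69.6, 146, 127, 63.3 and 118 in LSEC. Ltbp4 fell in LSEC by 2.47 on the log2 scale (SE 0.32, limma adjusted p 0.00280), with no overlap, and this held in all 8 fits with a library left out. In EC every PH library also lay below every normal one, but the difference of -1.37 (SE 0.27, interval -2.01 to -0.72) did not pass (limma adjusted p 0.203). The test of the difference between the responses did not pass, -1.10 (interval -2.40 to 0.19, adjusted p 0.946).

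Selp encodes P-selectin, which endothelial cells and platelets store in granules and display to catch leukocytes. Normal LSEC had 47.6, 11.6 and 120 FPKM, PH LSEC 304, 241, 115, 507 and 219, normal EC 44.1 and 101, and PH EC 97.2, 68.2 and 45.9. Of the PH LSEC libraries 4 lay above all normal ones, and the difference of 2.57 (SE 0.69, interval 1.02 to 4.12) did not pass (limma adjusted p 0.0514). It passed without normal LSEC library 3 (adjusted p 0.0152) or PH LSEC library 3 (0.0470). In EC the difference was 0.01 (interval -0.99 to 1.01, limma adjusted p 0.996). Platelet markers, 7 genes in all, summed to 3.28 to 7.23 FPKM in normal LSEC and 9.86 to 18.4 in PH LSEC. Gp6 was at 0 in both, and the part of platelets in the Selp levels was not tested. Only 4 of the 7 were tested in the fit of all 20 groups, so the sum cannot measure platelet transcripts in full.

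Stc2 encodes stanniocalcin-2, a secreted glycoprotein. It was at 0.197, 0 and 0.773 FPKM in normal LSEC and at 19.3, 31.5, 8.56, 33.2 and 15 in PH LSEC. Stc2 rose by 3.98 (SE 0.40, limma adjusted p 0.00125) and passed in all 8 fits with a library left out. It entered the test only through the PH group, since no normal LSEC library reached the minimum of 1 FPKM, and with a pseudocount of 1 the change is understated. In EC it was at 1.82 and 1.01 FPKM in normal liver and 2.57, 1.46 and 0.352 after PH, a difference of -0.06 (interval -1.23 to 1.10, limma adjusted p 0.976). The response of LSEC exceeded that of EC by 4.04 (SE 0.48, limma adjusted p 2.27e-06), a difference known when the genes were chosen and the single one of the 10 to pass, where 0.103% of 16527 genes had a higher response in LSEC. Thy1 cells held Stc2 in both conditions, 13.5 and 15.7 FPKM in normal liver and 14.7 and 15.7 after PH, and overlapped PH LSEC.

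**Figure D3:**
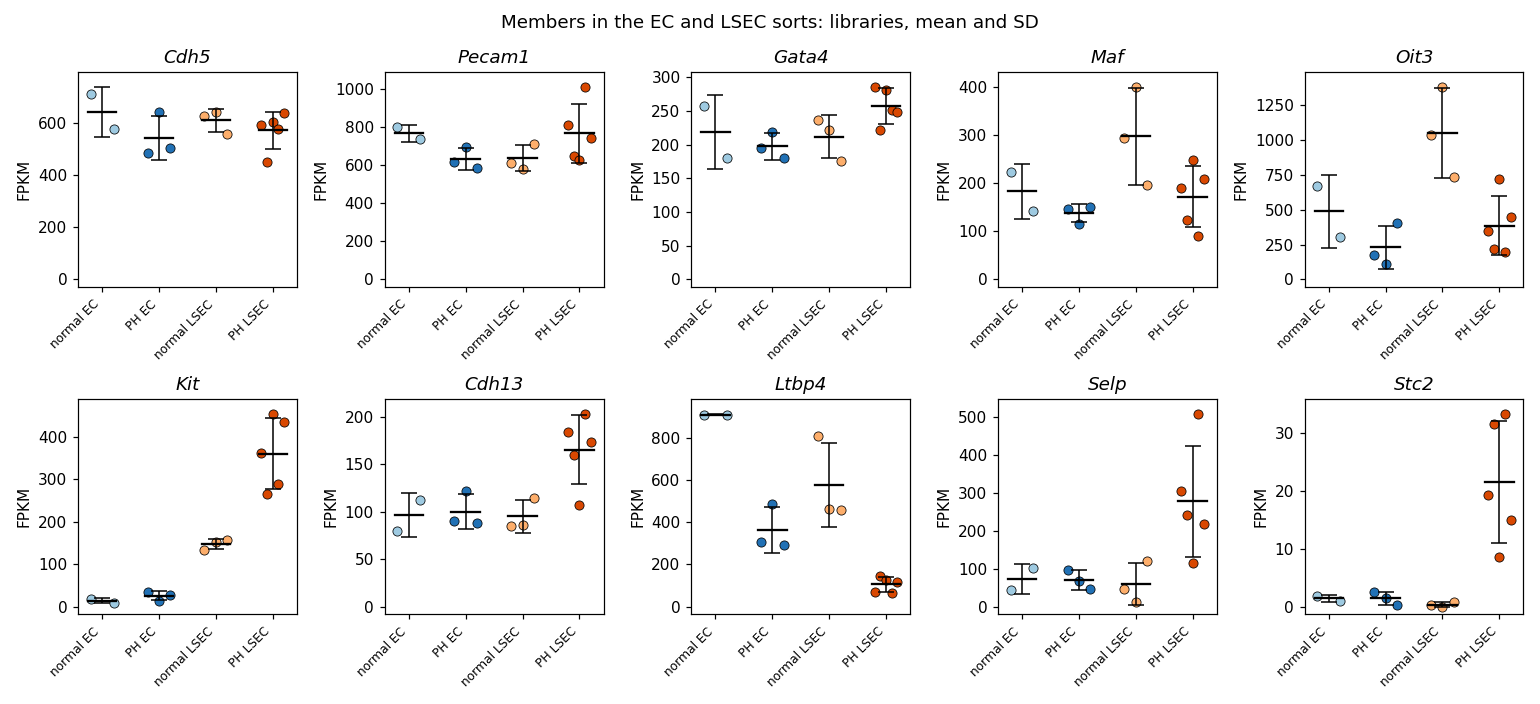
FPKM of each gene (vertical axes, each panel with its own scale) in the libraries of normal EC, PH EC, normal LSEC and PH LSEC; points are libraries, bars the mean and SD. The groups overlap for Cdh5, Kit is high in both LSEC groups, Ltbp4 is lowest in PH LSEC, and Stc2 is above 5 FPKM in the PH LSEC libraries only.

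By the test across the whole table, 2 of the 10 genes rose in LSEC after PH (Kit and Stc2) and 2 fell (Ltbp4 and Oit3), where 4.15% of 11501 genes rose and 4.31% fell. In EC none of the 10 passed, where 0.0249% of 12064 genes did; 1 of the 10, Ltbp4, had an unadjusted p under 0.05, and none passed under any of the 12 other settings or left-out libraries. The median change over all genes was -0.03 in LSEC and 0.02 in EC. The count for LSEC was 2 without normal LSEC library 1 and between 3 and 6 without any other library. Oit3 was also high in KC of normal liver, and 8 Kupffer markers summed to 7.65 to 149 FPKM in normal LSEC and 3.60 to 15 in PH LSEC, where 1 of 5 tested fell (median -2.11). In EC they summed to 14.2 to 20.8 FPKM and 9.56 to 200, with a median difference of 1.08, and their part in the changes was not tested. The ratio of Kit to Ltbp4 moved with both changes. It was 0.166 to 0.343 in normal LSEC and 1.81 to 5.19 in PH LSEC. In EC it was 0.0106 to 0.0196 in normal liver and 0.0285 to 0.111 after PH. No pair of these groups overlapped. Neither gene passed in EC, the ratio was not tested, and the share of other gene pairs without overlap was not counted.

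**Figure D4:**
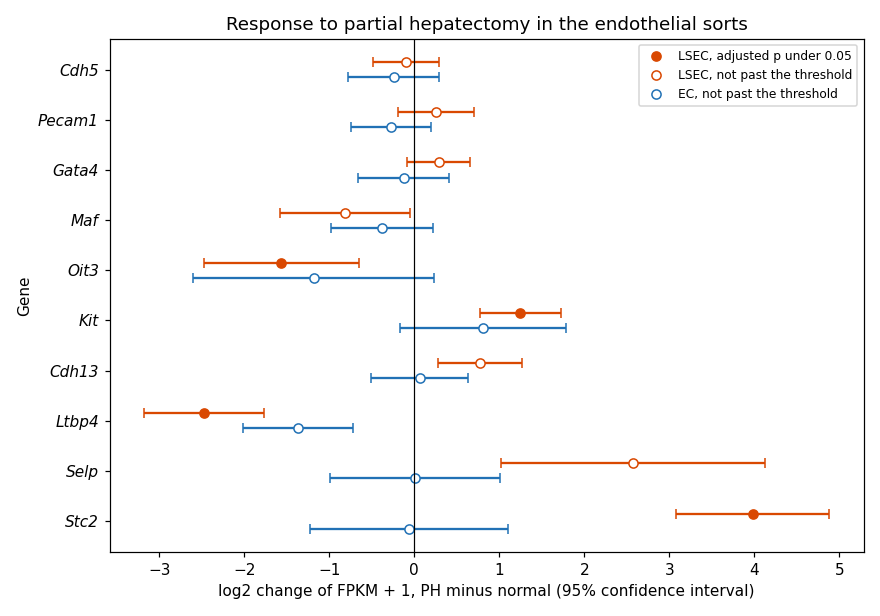
Change of log2(FPKM + 1) after PH (horizontal axis, PH minus normal, with 95% confidence intervals) for each gene (vertical axis) in LSEC and EC; filled points passed an adjusted p of 0.05. The filled points are Oit3 and Ltbp4 to the left of 0 and Kit and Stc2 to the right, all in LSEC; in EC the interval of Ltbp4 alone leaves out 0.

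In PH liver 4 of the 10 genes differed between LSEC and EC. Kit, Selp and Stc2 were higher in LSEC, by 3.83, 1.87 and 3.15, where 3.16% of genes were higher, and Ltbp4 was lower, by -1.81 (SE 0.31, limma adjusted p 0.00464), where 5.87% were lower. For these 4 genes the libraries of the 2 sorts did not overlap. Those of Gata4, which did not pass, did not overlap either, and the share over all genes was not counted. Stc2 entered this test only through the LSEC group. The difference of Selp (SE 0.42, limma adjusted p 0.0184) was lost without PH EC library 2 (adjusted p 0.0680) or PH EC library 3 (0.0917), while that of Stc2 (SE 0.44, limma adjusted p 0.00151) and those of Kit and Ltbp4 held in all 8 fits with a library left out. The PH EC libraries also held more mesothelial and duct transcripts. The 5 mesothelial markers summed to 140 to 549 FPKM in PH EC and 0.370 to 1.53 in PH LSEC. The 7 duct markers summed to 169 to 321 and 10.2 to 99.2. The sums of 8 stellate markers overlapped, at 176 to 324 in PH EC and 9.24 to 207 in PH LSEC. In normal liver the mesothelial sums were 10.6 to 148 FPKM in EC and 0.0871 to 7.19 in LSEC. The part of these cells in the differences between the sorts was not tested. Hepatocyte markers, 8 in all, summed to at most 34.7 FPKM in any EC or LSEC library, with Alb, Apoa1, Ttr and Serpina1a listed at 0. With those 4 at 0, the sum cannot measure hepatocyte transcripts in full.

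The promoters of these 4 genes are shown because they alone of the 10 had an entry among the RefSeq promoters. Their expression did not enter this choice. Each sequence holds the 250 bases before the gene's start, 5′ to 3′ on the gene's strand, from RefSeq on build GRCm38.p6; 4 of the 10 genes had an entry. Ltbp4 has 3 start sites in that table and Kit 2, and the window of the transcript used was picked by the order of the start sites, since the builds differ. Kit lies at chr5:75574741-75574990 (plus strand), Ltbp4 at chr7:27333649-27333898 (minus strand), Selp at chr1:164115014-164115263 (plus strand) and Stc2 at chr11:31370062-31370311 (minus strand). Capitals mark AGGAAG or its reverse complement, a core of the sites bound by ETS transcription factors, a family that includes Erg and Fli1 of endothelial cells.
Kit: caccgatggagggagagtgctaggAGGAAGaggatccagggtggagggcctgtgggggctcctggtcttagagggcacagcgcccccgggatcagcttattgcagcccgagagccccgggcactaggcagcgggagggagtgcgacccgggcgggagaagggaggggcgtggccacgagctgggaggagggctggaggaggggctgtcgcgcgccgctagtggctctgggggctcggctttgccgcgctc
Ltbp4: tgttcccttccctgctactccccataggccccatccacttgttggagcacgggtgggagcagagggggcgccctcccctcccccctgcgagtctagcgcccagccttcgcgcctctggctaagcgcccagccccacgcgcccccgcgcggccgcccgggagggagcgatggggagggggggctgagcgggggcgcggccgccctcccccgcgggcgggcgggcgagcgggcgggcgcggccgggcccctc
Selp: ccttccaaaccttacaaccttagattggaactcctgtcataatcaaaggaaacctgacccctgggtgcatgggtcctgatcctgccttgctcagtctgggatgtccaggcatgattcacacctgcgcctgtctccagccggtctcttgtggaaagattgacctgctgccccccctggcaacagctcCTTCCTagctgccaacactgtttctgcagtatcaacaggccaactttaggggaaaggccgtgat
Stc2: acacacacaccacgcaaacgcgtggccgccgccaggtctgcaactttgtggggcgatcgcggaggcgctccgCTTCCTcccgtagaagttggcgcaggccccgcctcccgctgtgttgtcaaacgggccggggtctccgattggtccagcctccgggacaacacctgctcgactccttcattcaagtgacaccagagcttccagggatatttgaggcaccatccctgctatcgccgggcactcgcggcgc

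The ETS core AGGAAG was found once each in the Kit, Selp and Stc2 windows and in none of the 3 windows of Ltbp4, where 29.5% of 32851 promoter windows of this length hold it on either strand. The GATA motif AGATAA was in none of the 4 and in 10.0% of all windows, and CTTTGNT, a core of TCF and LEF sites, was in Selp alone and in 16.0% of all windows. In the Selp window, where 2 of the motifs occur, the matches do not overlap, and a match is a description of the sequence. The Ltbp4 window shown had a GC content of 79.2% (64.4% to 79.2% over its 3 windows), Kit 70.8%, Stc2 64.4% and Selp 53.6%, against a median of 52.4% over all windows.

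Other genes of the same compartments, without the 10, were counted in lists of known markers. In LSEC after PH, 4 of 5 pericentral endothelial genes rose and none fell, with a median of 3.03 against -0.03 over all genes, of which 4.15% rose and 4.31% fell. The largest were Wnt9b, a Wnt ligand (3.84, SE 0.45, limma adjusted p 0.00226), and Thbd, thrombomodulin (3.50, SE 0.34, limma adjusted p 0.00123). Of 12 sinusoidal genes 2 fell and none rose, with a median of -1.30: Dnase1l3, an extracellular nuclease, changed by -1.77 (SE 0.43, limma adjusted p 0.0339) and Clec4g, a C-type lectin, by -1.72 (SE 0.38, limma adjusted p 0.0222). Of 17 periportal or large-vessel genes 3 rose and 4 fell, with a median of 0.18. Sele, E-selectin, rose by 3.25 and Gja4, a connexin of arterial endothelium, by 1.39, while the Notch ligand Dll4 fell by 3.30 and the scavenger receptor Msr1 fell by 2.35. Of 23 pan-endothelial genes 1 rose, Nos3, the endothelial nitric oxide synthase, by 1.14, and 4 fell, with a median of -0.12, the largest falls being of the tight junction gene Cldn5 (-2.39) and of Clec14a (-1.28). In EC none of the genes in these 4 lists passed, with medians of -0.07 in the pericentral, -0.86 in the sinusoidal, -0.10 in the periportal or large-vessel and -0.18 in the pan-endothelial list, against 0.02 over all genes, of which 0.0249% passed.

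Between the sorts in PH liver the same lists were counted. Of 5 pericentral genes 4 were higher in LSEC, with a median of 4.19 against -0.06 over all genes, of which 3.16% were higher and 5.87% lower; the R-spondin Rspo3 differed by 4.52 (SE 0.65) and the Wnt ligand Wnt2 by 4.36 (SE 0.37), with limma adjusted p of 0.00189 and 0.000121. Of 17 periportal or large-vessel genes 11 were lower in LSEC and none higher, with a median of -2.09; Gja5, an arterial connexin, differed by -4.82 and Cd34, a sialomucin of capillaries and larger vessels, by -3.79. Of 12 sinusoidal genes 2 were higher, Lyve1 by 3.34 and Flt4, the receptor for VEGF-C, by 1.38. The median of this list was 0.24. Among 23 pan-endothelial genes Sox7 and Emcn were higher, by 0.93 and 0.84, and Sox17 and Clec14a lower, by -1.60 and -1.11. Of the lymphatic genes, 4 of them tested, Pdpn, podoplanin, was lower in LSEC, by -4.46; this gene is also known from mesothelium. Kitl, the ligand of Kit, was lower in LSEC, by -1.03 (SE 0.23, limma adjusted p 0.0167). In normal liver no gene of these 6 lists passed between the sorts. The response to PH differed between LSEC and EC for Wnt9b, by 3.91 (SE 0.90, limma adjusted p 0.0359), and for Pdpn, by -3.68 (SE 0.71, limma adjusted p 0.00582).

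Within PH LSEC the 5 libraries differed from each other in several of the 10 genes at once. Library 4 had the lowest Oit3, Maf and Ltbp4 and the highest Selp, Cdh13, Pecam1 and Stc2 of the 5. Library 3 had the highest Oit3 and Maf and the lowest Selp, Cdh13, Pecam1 and Stc2. The sinusoidal marker sum includes Gata4, Maf and Oit3, so it is not separate from their values. It spread from 3119 to 9778 FPKM over these libraries. The labels give no order, batch or time for them.

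In Kupffer cells, the macrophages of the sinusoid, 8 of the 9 genes tested fell after PH, where 20.1% of 11835 genes fell. Ltbp4 went from 150 and 185 FPKM to 3.59, 1.41 and 7.95, a change of -5.18 (limma adjusted p 0.00229), and Oit3 from 363 and 529 FPKM to 14.7, 12.4 and 28.7, a change of -4.58 (limma adjusted p 0.00157). Gata4 changed by -3.43, Cdh13 by -2.83, Kit by -2.78, Selp by -2.52, Pecam1 by -1.89 and Maf by -1.58. Selp, at 0.289, 0.403 and 2.53 FPKM after PH, entered the test only through its normal libraries. Cdh5 was the exception among them: it was at 400 and 467 FPKM and then at 253, 221 and 384, a difference of -0.63 that did not pass (limma adjusted p 0.104), and -0.89 that did (0.0314) after quantile normalization, under which Selp no longer passed (0.0586). Over the same libraries the 25 pan-endothelial markers summed to 3249 to 4065 FPKM and then to 500 to 872. The 25 include Cdh5 and Pecam1, so this sum is not separate from their values. Without these genes, 22 of 23 pan-endothelial genes fell, with a median of -3.33. The 8 Kupffer markers summed to 13172 to 14765 FPKM and then to 29079 to 30153. The part of endothelial transcripts in these changes was not tested. The count was 5 without either normal KC library 1 or 2.

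In the blood sort 5 of the 9 genes tested rose after PH, where 24.3% of 12819 genes rose. Cdh5 was at 17.8 and 16.8 FPKM and then at 472 and 351, a change of 4.48 (limma adjusted p 0.000766), and Maf at 5.99 and 9.37 FPKM and then at 194 and 183, a change of 4.47 (limma adjusted p 0.000766). Gata4 changed by 2.82, Pecam1 by 1.78 and Oit3 by 1.65. Kit was at 34.5 and 33.0 FPKM and then at 158 and 57.0, a difference of 1.47 (limma adjusted p 0.0515; 0.0333 and 0.0278 after upper-quartile and quantile scaling), while 6 mast cell markers summed to 27.4 to 56.5 FPKM in normal blood and to 0.120 to 0.289 in PH blood. As given above, Kupffer markers were higher in the PH blood libraries. Of 23 pan-endothelial genes, counted without Cdh5 and Pecam1, 19 rose and 1 fell, with a median of 2.17. The part of both marker sets in these changes was not tested. The count was 2 without normal blood library 1 or 2, 8 without PH blood library 2, and 3, without Pecam1 and Oit3, in 1 fit of all 20 groups.

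Of the ductal sorts, NPD held Gata4 at 34.3 and 44.8 FPKM in normal liver and 25.1 and 26.6 after PH, and Oit3 reached 35.3 FPKM in normal BEC. In BEC 4 of 8 genes tested fell after PH, where 1.57% of genes fell: Oit3 by -4.07, Cdh5 by -3.37, Pecam1 by -3.04 and Ltbp4 by -1.29. Oit3, Cdh5 and Pecam1 were under 1 FPKM in both PH BEC libraries. They entered the test only through the normal group, so a rise could not be called for them. Ltbp4 in BEC was at 37.2, 38.3, 39.9 and 30.6 FPKM and then at 14.6 and 14. Cdh5 in BEC was at 7.88, 22.4, 22.4 and 5.56 FPKM and then at 0.215 and 0.374, and the count was 0 without PH BEC library 1 or 2 and 1, Ltbp4, with no filter or after quantile normalization. Markers of other cells fell in the same libraries: 6 of 8 Kupffer markers (median -2.77), and 8 of 12 other sinusoidal endothelial genes (median -3.04). Over these libraries the Kupffer markers summed to 138 to 373 FPKM and then to 44.9 to 52.8. The 25 pan-endothelial markers, Cdh5 and Pecam1 among them, summed to 113 to 363 and then to 21.8 to 21.9. Of 20 other pan-endothelial genes tested, 5 fell, with a median of -2.34. The part of these markers in the changes was not tested. In NPD Ltbp4 was at 504 and 770 FPKM and then at 137 and 174, a change of -2.0 (limma adjusted p 0.0171), the single call among the 7 genes tested, where 5.51% of genes fell. In NPD 6 of 8 Kupffer markers also fell, from a sum of 141 to 257 FPKM to 34.8 to 45.5, and their part in the change of Ltbp4 was not tested. The count was 0 without PH NPD library 1 or 2 and with no filter (adjusted p 0.0514), 2 without normal NPD library 1 and 5 without normal NPD library 2. Ltbp4 thus passed as lower in LSEC, KC, BEC and NPD, though not in BEC in 1 fit of all 20 groups (limma adjusted p 0.216). Groups of so few libraries often separate by order alone, and the share over all genes was not counted. With this limit, the PH libraries of Ltbp4 also lay below every normal one, without passing, in EC, Thy1 cells and cBEC. In cBEC they were at 21.6 and 21.9 FPKM, against 36.3 to 144 in normal liver. In HSC its difference was 0.00 (interval -1.15 to 1.16, limma adjusted p 0.999), and in blood 1.0 (interval -0.63 to 2.64, limma adjusted p 0.215), from 20.9 and 38.5 FPKM to 104 and 32.0; without PH blood library 2 the latter was 1.84 and passed (adjusted p 0.0391).

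No member passed in cBEC, HC, Thy1 cells or HSC, where 0.0681%, 6.19%, 0.00747% and 0.00853% of genes passed in either direction. By limma, unadjusted p values under 0.05 were found for 1 of 10 genes tested in cBEC, 0 of 3 in HC, 4 of 10 in Thy1 cells and 4 of 8 in HSC. In Thy1 cells these were Gata4, Kit and Selp, with positive differences, and Ltbp4 with a negative one, from 943 and 452 FPKM to 195 and 222. In 1 fit of all 20 groups, Gata4 (adjusted p 0.0169), Kit (0.00598) and Ltbp4 (0.0434) passed in Thy1 cells, and Cdh5 (0.00157), Pecam1 (0.0204), Oit3 (0.0326) and Cdh13 (0.0480) passed in HSC, all 4 with negative differences. The highest value of any of the 10 in a hepatocyte library was 5.77 FPKM, of Gata4 in normal liver.

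The genes whose group means over all 20 groups followed each of the 10 most closely were found among 11367 genes, as a description without a test; all genes were measured in the same libraries. Cdh5 was followed by Dysf (Pearson r 0.987), Stab1 (0.985) and Adcy4 (0.981), and Pecam1 by Icam2 (0.994), Stab1 (0.990) and Tek (0.987). Oit3 was followed by Dnase1l3 (0.991), Clec4g (0.987) and Gpihbp1 (0.986). For Kit the closest were Wnt2 (0.958), Insl3 (0.942) and Ctla2a (0.941). Cdh13 was followed by Thsd1 (0.984), Nos3 (0.983) and Tie1 (0.980), and Selp by S100a13 (0.968), Thsd1 (0.965) and Cdh13 (0.956). Of the 2 transcription factors, Gata4 was followed by Nav1 (0.949), Adarb1 (0.946) and Ifitm2 (0.940), and Maf by Tmcc3 (0.977), Dusp3 (0.965) and Map3k3 (0.953). Ltbp4 was followed by Mapk12 (0.937), Hspa12a (0.936) and Dsel (0.932). For Stc2 the values spread most widely, with Nts (0.937), Ajap1 (0.874) and Cyp1b1 (0.833).

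The 10 genes lie on 7 chromosomes in the table, in coordinates of mm9, the build in the submitters' processing notes. Kit (NM_021099) is at chr5:75971015-76052746 on the plus strand, Cdh5 (NM_009868) at chr8:106625524-106668402 on the plus strand, and Ltbp4 (NM_001113549) at chr7:28090159-28118667 on the minus strand. Stc2 (NM_011491) is at chr11:31259440-31270061 on the minus strand, Selp (NM_011347) at chr1:166045394-166080157 on the plus strand, and Oit3 (NM_010959) at chr10:58885707-58904527 on the minus strand. Pecam1 (NM_001305158) is at chr11:106515526-106576595 on the minus strand, Gata4 (NM_008092) at chr14:63817750-63864108 on the minus strand, Maf (NM_001025577) at chr8:118227152-118230794 on the minus strand, and Cdh13 (NM_019707) at chr8:120807510-121848827 on the plus strand. Pecam1 had 4 rows, Ltbp4 3, and Gata4 and Kit 2 each, and the mean over all rows gave the same calls.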

How the data were processed

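RNA of sorted cells, taken up in TRIzol, was made into libraries with standard Illumina methods, per the labels' protocols. The deposited table holds FPKM values, a unit taken from the authors' name for the table; it has 36141 rows and 55 libraries, and its headers name no counting tool. Bowtie 1.0.0, CASAVA 1.8.2 and build mm9 are listed in the submitters' processing notes, with no role. FPKM carries no counts and the read depth is not given in the sources used here. The sum of FPKM per library was 624726 to 1203197. Values of the HC libraries carry fewer decimals than those of the other sorts. Whether HC were processed alike is not given in the sources used here, and HC are among the background populations.

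Libraries were grouped by title. On log2(FPKM + 1), limma 3.58.1 under R 4.3.3 (variance trend, robust) was applied to the libraries of the compared groups only; the difference of responses used 1 fit of all 20 groups, and contrasts against 8 populations used all libraries of a treatment. Genes needed 1 FPKM in as many libraries as the smallest group. Tests were two-sided, Benjamini-Hochberg adjusted over all genes tested, with a threshold of 0.05. Fold changes are on the log2(FPKM + 1) scale, which understates changes of low genes. The fit was tested on simulated data.

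All 10 genes are named; from each endothelial list and comparison up to 2 rises and 2 falls past the threshold are named, and for each gene the 3 most alike genes reaching 10 FPKM in a group mean. The 10 genes, the lists and the rules were chosen with earlier results of these data known, among them the Kit difference between sorts and the Stc2 response. Neither these differences nor the counts over the genes and lists are independent evidence. Alternatives were a pseudocount of 0.1, no filter, upper-quartile and quantile scaling, a fit of all groups, a replicate block, the mean over rows and leaving out each library.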

Additional observations from a re-analysis of the deposited data

Results flagged for a closer look

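In 50 sets of 4 or 5 libraries, 10 sets held 1 outlying library, where about 2.5 would by chance if the sets were independent and normally distributed. The sets are the 10 genes in the same libraries and some values lie near 0, so this number cannot measure an excess. In normal cBEC library 1 was far above the other 3 for Ltbp4 (144 FPKM), Selp (17.7 FPKM), Cdh13 (13.7 FPKM) and Stc2 (4.68 FPKM); in the same library the 25 pan-endothelial markers summed to 416 FPKM, against 41.4 to 161 in the others. In PH HC library 1 was above the other 3 for Pecam1 (2.99 FPKM), Kit (1.06 FPKM), Cdh13 (0.16 FPKM) and Stc2 (0.02 FPKM). In normal HC library 3 was above the others for Oit3 (1.54 FPKM) and Stc2 (0.03 FPKM). The response of Stc2 to PH differed between LSEC and EC by 4.04 on the log2 scale, by the test of the difference itself. No explanation of these values was tested.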

How the results depend on the processing

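In LSEC after PH, 4 of the 10 genes passed; the counts without 1 library lay between 2 and 6, with 2 without normal LSEC library 1. Between LSEC and EC in normal liver 1 passed, and 0 with no filter; the counts without 1 library lay between 0 and 1, with 0 without normal LSEC library 1, 2 or 3. The counts were within 1.5 times the main count for EC after PH, for LSEC against EC after PH, for the difference of responses, and for both sorts against the 8 other populations, under every setting run. Over the 8 other populations together, 18 calls became 12 to 25.

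In LSEC after PH, Oit3 did not pass with no filter (adjusted p 0.1), after upper-quartile scaling (0.0652) or in 1 fit of all 20 groups (0.183), and Kit did not pass in that fit of all groups (0.163), where Selp passed (0.00692). Cdh13 passed after upper-quartile scaling (0.0437). In PH liver Selp did not pass between the sorts with no filter (0.0523) or in the fit of all groups (0.0610). Kit did not pass between them in normal liver with no filter (0.351). The difference of Stc2 between normal LSEC and the other populations was lost under quantile normalization (0.163).

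In LSEC and EC no pairing of libraries by replicate number was seen. Deviations of same-numbered libraries correlated with r between -0.231 and -0.00927 in LSEC and of -0.123 and 0.0344 in EC. In HC r was -0.306, 0.501, -0.645 and 0.375. With the replicate block the count in LSEC after PH was 0 and the genes called over the whole table went from 973 to 3, and the count between the sorts in normal liver was 0. In so few libraries the block leaves few degrees of freedom, so these losses cannot show a dependence on pairing. The block raised the genes called in BEC (232 to 1027), NPD (1974 to 2537) and KC (4350 to 6549), and lowered them in blood (8199 to 7667) and HC (621 to 302). In Thy1 cells it called Gata4, Kit and Selp higher (485 genes over the table against 1). The block also turned the sign of Stc2 in EC after PH to 0.315 and of Gata4 between the sorts in normal liver to 0.092.

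Signs turned for differences that passed nowhere. Quantile normalization gave -0.011 for Gata4 in LSEC after PH, -0.020 for Cdh13 and -0.064 for Selp in EC after PH, 0.084 for Cdh5 and 0.036 for Gata4 between the sorts in normal liver, -0.109 for Cdh5 between the sorts after PH and -0.248 for its difference of responses. Upper-quartile scaling gave -0.037 for Selp in EC after PH. With 1 library left out, EC after PH ranged from -0.579 to 0.598 for Selp, from -0.184 to 0.310 for Cdh13, from -0.386 to 0.315 for Stc2 and from -0.385 to 0.133 for Gata4. LSEC against EC in normal liver ranged from -0.221 to 0.0805 for Cdh5, from -0.294 to 0.224 for Gata4, from -0.255 to 0.239 for Cdh13 and from -1.46 to 0.175 for Selp. LSEC against EC after PH ranged from -0.00254 to 0.197 for Cdh5. The difference of responses ranged from -0.00667 to 0.295 for Cdh5 and from -0.957 to 0.201 for Oit3, and Stc2 against the 8 others from -0.00903 to 0.475 in normal EC and from -0.111 to 0.590 in PH EC.

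Scaling moved the balance of calls over all genes. Under quantile normalization the share of calls that were higher went from 35.0% to 46.6% for LSEC against EC after PH, from 29.8% to 57.1% for the difference of responses, and, before and after this step, was 12.9% and 40.3% in BEC, 63.7% and 51.2% in NPD, 28.8% and 41.5% in HC and 45.4% and 55.7% in KC. The median change of all genes moved with it as well. In cBEC it was -0.11 before and 0.05 after this step, in blood -0.31 and -0.14, in KC -0.04 and 0.09, in BEC -0.12 and 0.03, in NPD 0.09 and -0.02, and for normal LSEC against the 8 others -0.17 and -0.05. The cause was not tested for any of these. Groups of 2 to 5 libraries and an unknown read depth limit what could be detected.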
